A study of Mus musculus with 6 samples.

Results

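The 9 genes described here carry the insulin signal from its receptor to AKT and glycogen synthase kinase 3 (GSK3): the insulin receptor substrates *Irs1* and *Irs2*, the phosphoinositide 3-kinase (PI3K) subunits *Pik3ca* and *Pik3r1*, the kinase gene *Pdpk1*, *Akt1* and *Akt2*, and *Gsk3a* and *Gsk3b*. They were taken by gene name, by a rule that uses no measured value, although earlier results of these data were known when the set was proposed, and were joined by gene identifier to the counts of each mouse. All 9 passed the filter on low counts, and they stand among 17212 genes tested of 56923 listed. The libraries came from the PBS-perfused left ventricles (LVs) of 3 WT mice and 3 heterozygous *Lztr1* R409C/+ mice, all 12 weeks old and each sequenced separately. The sample labels call the tissue heart and the second group mutant. *Lztr1* encodes a substrate adaptor of a cullin-based ubiquitin ligase that acts on RAS-family proteins, and R409C is the mouse counterpart of a dominant substitution of Noonan syndrome. The allele was knocked in with CRISPR/Cas9 and is present in every cell of the mouse, the line was backcrossed to C57BL/6J, and the study used male mice. No group received a drug.

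Insulin and the insulin-like growth factors bind receptor tyrosine kinases, which phosphorylate IRS proteins. Phosphorylated IRS proteins recruit PI3K, whose lipid product brings PDK1 and AKT to the membrane, where PDK1 activates AKT. AKT in turn phosphorylates and restrains GSK3 and the FOXO transcription factors, and in heart muscle this pathway governs glucose uptake, glycogen storage, and physiological growth. These steps run through phosphorylation, whereas the values here are mRNA levels only.

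Total counts per library were between 66130887 and 72641124. The share of mitochondrially encoded genes was lowest in WT replicate 3 (13.8%) and highest in *Lztr1* R409C/+ replicate 1 (45.4%), against 29.7% to 37.3% in the other 4 mice. Levels are CPM, read counts scaled to a common library total, after TMM normalization, and 3 counts corresponded to at most 0.0541 CPM, so that depth did not limit the detection of any of the 9 genes. *Lztr1* itself had 24.2, 24.2, and 22.2 CPM in WT mice and 23.9, 27.9, and 25.3 CPM in *Lztr1* R409C/+ mice, which does not check the labels because the substitution leaves a transcript to be counted. The 6 cardiomyocyte markers summed to 34020 to 38590 CPM in WT and 25510 to 37280 CPM in *Lztr1* R409C/+ mice, and none of these markers was at 0. Over all genes the quasi-likelihood test of edgeR called 7 genes at an adjusted p under 0.05 (0.0407%), and 8.63% of genes had an unadjusted p under 0.05.

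None of the 9 genes passed the adjusted threshold in edgeR's quasi-likelihood test, in its exact test, or in DESeq2. Only *Gsk3b* had an unadjusted p under 0.05 in each of these tests, that is 1 of 9 genes beside 8.63% of all genes. The log2 fold change of *Lztr1* R409C/+ over WT mice was below 0 for 6 of the 9 genes, against 48.6% of all genes tested. Its median was -0.26 over the 9 genes and 0.01 over all genes. In 3 of the 9 genes the groups did not overlap, with *Akt1* higher and *Pik3ca* and *Gsk3b* lower in every *Lztr1* R409C/+ mouse, and 15.5% of all genes tested were without overlap in the same way.

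**Figure D1:**
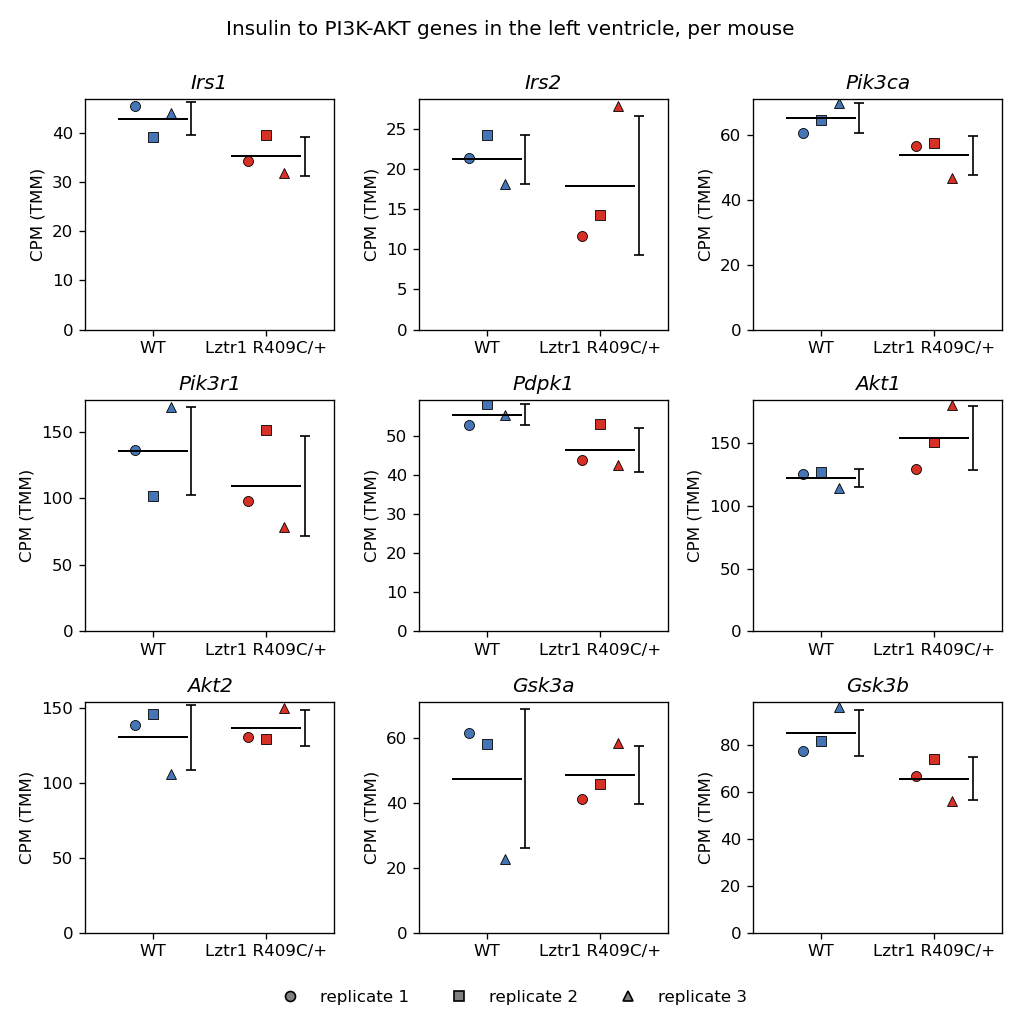
CPM of the 9 genes in each mouse, with WT in blue and *Lztr1* R409C/+ in red, horizontal lines for the mean, whiskers for the SD (n = 3), and circles, squares, and triangles for replicates 1, 2, and 3. The groups are apart for *Pik3ca*, *Akt1*, and *Gsk3b*, and WT replicate 3 is far below the other mice for *Gsk3a*.

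The members differed in level as well as between mice. Per kilobase of exon sequence, *Akt1* had the highest WT level, with 15.7 ± 0.898 CPM per kilobase (SD, n = 3), followed by *Gsk3a* (13.4 ± 6.02), *Pik3r1* (12.6 ± 3.10), and *Akt2* (10.1 ± 1.65). *Gsk3b* (8.66 ± 1.01), *Pik3ca* (7.15 ± 0.511), *Pdpk1* (4.95 ± 0.245), *Irs1* (4.58 ± 0.351), and *Irs2* (2.88 ± 0.416) came below. From *Akt1* down to *Gsk3b*, each gene overlapped the next among the WT mice, as did *Pdpk1* and *Irs1*, while *Gsk3b*, *Pik3ca*, and *Pdpk1* were apart from one another and *Irs2* was below *Irs1* in each WT mouse. Dividing by the longest transcript in place of all exons exchanged *Gsk3a* with *Pik3r1* and *Pik3ca* with *Pdpk1* in the order. In *Lztr1* R409C/+ mice the order by mean was the same except that *Akt2* (10.5 ± 0.905) stood above *Pik3r1* (10.2 ± 3.53), whose ranges overlapped.

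IRS1 and IRS2 are the docking proteins that the insulin receptor phosphorylates, and they are the first members of the pathway inside the cell. *Irs1* (ENSMUSG00000055980.3) lies on chr1:82210822-82269338, minus strand, and *Irs2* (ENSMUSG00000038894.8) on chr8:11034681-11059499, minus strand, in GRCm39. Their promoters are shown because they are the only ones of the 9 genes' promoters that held CAAAACA, the core of an insulin response element, or its reverse complement TGTTTTG, which occurs 2 times in *Irs1* and 1 time in *Irs2*. Both also held the E-box CACGTG, which overlaps 1 of the 2 in *Irs1* by 2 bases and lies 1 base from TGTTTTG in *Irs2*. The sequences are RefSeq windows of GRCm38.p6 from 250 bases before to 50 bases after the gene's start, chr1:82291390-82291689 and chr8:11008880-11009179, both on the minus strand and written 5′ to 3′ with these motifs in capitals.
Irs1: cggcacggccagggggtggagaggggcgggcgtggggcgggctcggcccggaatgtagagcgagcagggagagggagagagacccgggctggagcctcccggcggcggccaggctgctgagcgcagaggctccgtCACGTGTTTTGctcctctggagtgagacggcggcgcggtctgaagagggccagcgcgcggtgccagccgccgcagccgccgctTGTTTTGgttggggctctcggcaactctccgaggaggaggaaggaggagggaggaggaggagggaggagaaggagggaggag
Irs2: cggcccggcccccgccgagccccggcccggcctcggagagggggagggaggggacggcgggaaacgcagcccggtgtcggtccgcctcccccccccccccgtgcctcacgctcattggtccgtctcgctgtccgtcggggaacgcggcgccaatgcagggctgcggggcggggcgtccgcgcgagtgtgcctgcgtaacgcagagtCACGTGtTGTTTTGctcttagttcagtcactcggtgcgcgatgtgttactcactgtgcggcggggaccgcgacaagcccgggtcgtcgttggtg
On either strand, CAAAACA occurred in 6.28% and CACGTG in 7.15% of all 32851 promoter windows of this length. A match is a run of letters only and says nothing of binding in these hearts.

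In the order of the replicates, *Irs1* had 45.3, 39.1, and 44.0 CPM in WT mice and 34.2, 39.6, and 31.8 CPM in *Lztr1* R409C/+ mice. The groups overlapped only through *Lztr1* R409C/+ replicate 2, which was just above WT replicate 2. Between the groups, the log2 fold change was -0.28 (SE 0.15, 95% interval -0.62 to 0.05), with an adjusted p of 0.641 in edgeR's quasi-likelihood test.

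*Irs2* had 21.3, 24.2, and 18.1 CPM in WT mice and 11.7, 14.3, and 27.8 CPM in *Lztr1* R409C/+ mice. Replicate 3 of the *Lztr1* R409C/+ group was the highest of all 6 mice and its replicates 1 and 2 were the lowest, so that the SD was 3.06 CPM in WT and 8.65 CPM in *Lztr1* R409C/+ mice. The log2 fold change was -0.24 (SE 0.28, 95% interval -0.84 to 0.36; adjusted p = 0.850, edgeR's quasi-likelihood test). A single mouse set much of this value: it was -0.71 without *Lztr1* R409C/+ replicate 3 (unadjusted p = 0.00425, adjusted p = 0.409, edgeR's quasi-likelihood test), -0.018 without its replicate 1, -0.11 without its replicate 2, and -0.14 without WT replicate 2. The ratio of *Irs1* to *Irs2* within a mouse was 2.12, 1.62, and 2.44 in WT mice and 2.93, 2.76, and 1.14 in *Lztr1* R409C/+ mice, with overlap (exact permutation test, two-sided, p = 1).

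PI3K class I enzymes pair a catalytic subunit with a regulatory subunit that binds IRS proteins. *Pik3ca* (ENSMUSG00000027665.14; chr3:32451820-32522635, plus strand) encodes the alpha catalytic subunit, the main insulin-responsive form in cardiomyocytes. It had 60.6, 64.5, and 69.8 CPM in WT mice and 56.6, 57.5, and 46.5 CPM in *Lztr1* R409C/+ mice, so that every *Lztr1* R409C/+ mouse was below every WT mouse. On the log2 scale, the fold change was -0.28 (SE 0.15, 95% interval -0.61 to 0.05; adjusted p = 0.648, edgeR's quasi-likelihood test). By itself, a gap between the groups in this direction was seen in 7.23% of all genes tested.

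*Pik3r1* (ENSMUSG00000041417.16; chr13:101817071-101904725, minus strand) encodes the regulatory subunits that hold and stabilize the catalytic subunit. It had 137, 102, and 169 CPM in WT mice and 98.3, 152, and 78.3 CPM in *Lztr1* R409C/+ mice. The mice of both groups were interleaved, with *Lztr1* R409C/+ replicate 2 as the second highest of the 6. A log2 fold change of -0.31 (SE 0.25, 95% interval -0.85 to 0.23) had an adjusted p of 0.773 in edgeR's quasi-likelihood test. It moved to -0.63 without *Lztr1* R409C/+ replicate 2, where the unadjusted p of the same test was under 0.05. Without *Lztr1* R409C/+ replicate 3 it was -0.12, and without WT replicate 3 it was -0.13. Relative to *Pik3r1*, *Pik3ca* stood at 0.444, 0.632, and 0.414 in WT mice, against 0.576, 0.379, and 0.594 in *Lztr1* R409C/+ mice, again with overlap (exact permutation test, two-sided, p = 1).

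*Pdpk1* (ENSMUSG00000024122.17; chr17:24292654-24369898, minus strand) encodes PDK1, which phosphorylates the activation loop of AKT and of related kinases. It had the smallest fold between the highest and the lowest mouse of the 9 genes, with 52.7, 58.2, and 55.3 CPM in WT mice and 43.7, 53.0, and 42.6 CPM in *Lztr1* R409C/+ mice. Only *Lztr1* R409C/+ replicate 2 reached the WT range, by a margin of less than 1 CPM over WT replicate 1. With a log2 fold change of -0.26 (SE 0.15, 95% interval -0.58 to 0.07), the adjusted p was 0.676 in edgeR's quasi-likelihood test.

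*Akt1* and *Akt2* encode the AKT kinases of most tissues, of which AKT2 is the form best known for insulin-dependent glucose uptake and AKT1 for growth. *Akt1* (ENSMUSG00000001729.15; chr12:112620248-112645654, minus strand) was the only member with every *Lztr1* R409C/+ mouse above every WT mouse. Its promoter is shown because it was the only one of the 15 windows of the 9 genes that held the FOXO core GTAAACA or its reverse complement TGTTTAC, in capitals, in 1 of the gene's 2 windows. It is the RefSeq window chr12:112674835-112675134 of GRCm38.p6, minus strand, 5′ to 3′.
Akt1: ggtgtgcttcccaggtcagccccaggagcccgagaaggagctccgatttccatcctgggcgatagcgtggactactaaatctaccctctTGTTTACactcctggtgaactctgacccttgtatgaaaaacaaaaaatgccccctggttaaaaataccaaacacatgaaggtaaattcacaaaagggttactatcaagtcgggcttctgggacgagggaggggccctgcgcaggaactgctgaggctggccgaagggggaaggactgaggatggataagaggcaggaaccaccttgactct
This core, on either strand, occurred in 3.65% of all 32851 windows, and its presence is a description of the letters only.

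*Akt1* had 126, 127, and 114 CPM in WT mice and 130.0, 151, and 181 CPM in *Lztr1* R409C/+ mice. The gap between the groups was narrow, with WT replicate 2 and *Lztr1* R409C/+ replicate 1 within 3 CPM of each other, and 8.3% of all genes tested had such a gap in this direction. For *Akt1* the log2 fold change was 0.33 (SE 0.17, 95% interval -0.03 to 0.69; adjusted p = 0.608, edgeR's quasi-likelihood test). It was 0.20 without *Lztr1* R409C/+ replicate 3 and 0.43 without *Lztr1* R409C/+ replicate 1, where the unadjusted p of the same test was 0.018. Exons of *Siva1*, on the opposite strand, cover 42.7% of the exon bases of *Akt1*, and without the strand of the counting, which is not given in the sources used here, reads over them cannot be told apart. *Siva1* was counted at 9.13 ± 2.05 CPM in WT and 10.2 ± 2.37 CPM in *Lztr1* R409C/+ mice (SD, n = 3).

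*Akt2* (ENSMUSG00000004056.16; chr7:27284378-27340262, plus strand) had 139, 146, and 106 CPM in WT mice and 130.3, 129, and 150.0 CPM in *Lztr1* R409C/+ mice. The highest of the 6 values was in *Lztr1* R409C/+ replicate 3 and the lowest in WT replicate 3, and of the other 4 mice the WT mice lay above the *Lztr1* R409C/+ mice. A log2 fold change of 0.07 (SE 0.17, 95% interval -0.30 to 0.44; adjusted p = 0.941, edgeR's quasi-likelihood test) had an interval that leaves room for a change in either direction. A processed pseudogene, *Akt2-ps*, shares 8.83% of the 50-base words of the longest *Akt2* transcript, so a part of the reads may have been split between them. The pseudogene had 3.44 ± 0.966 CPM in WT and 4.65 ± 0.217 CPM in *Lztr1* R409C/+ mice.

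The ratio of *Akt1* to *Akt2* within a mouse was 0.908, 0.872, and 1.08 in WT mice, against 0.997, 1.17, and 1.21 in *Lztr1* R409C/+ mice. WT replicate 3 lay inside the *Lztr1* R409C/+ range, above its replicate 1. On the log2 scale the ratio was -0.07 ± 0.17 in WT and 0.17 ± 0.15 in *Lztr1* R409C/+ mice, a difference of 0.24 (exact permutation test, two-sided, p = 0.2, Benjamini-Hochberg adjusted p = 0.8 over 4 ratios, where 3 mice against 3 cannot give a p below 0.1).

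**Figure D2:**
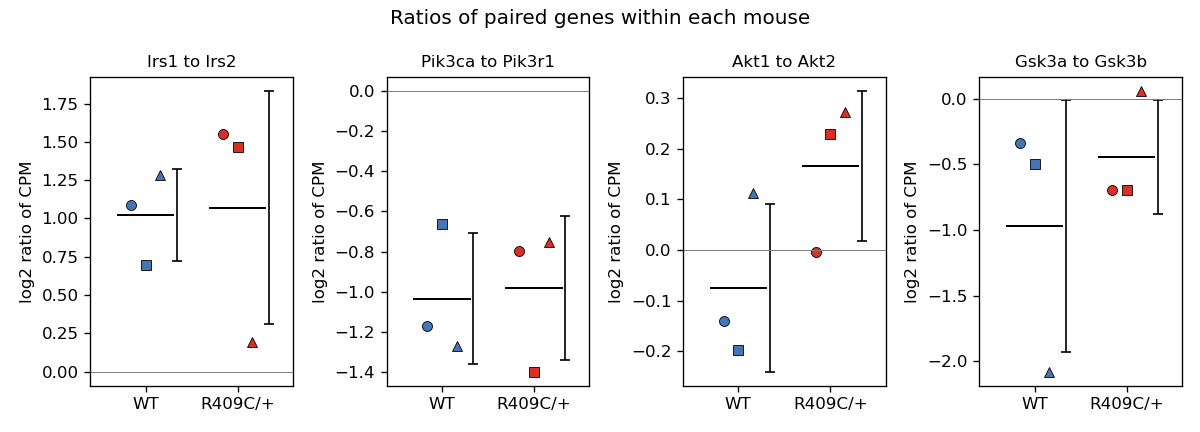
Log2 ratio of CPM between members of each gene pair in each mouse, with WT in blue, *Lztr1* R409C/+ in red, and circles, squares, and triangles for replicates 1, 2, and 3. The groups overlap in all 4 pairs, and WT replicate 3 has the lowest *Gsk3a* to *Gsk3b* ratio, at -2.08.

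GSK3 alpha and GSK3 beta are closely related kinases that phosphorylate glycogen synthase, among many substrates, and are restrained when AKT phosphorylates them. *Gsk3b* (ENSMUSG00000022812.15; chr16:37909363-38066446, plus strand) had 77.5, 81.6, and 96.4 CPM in WT mice and 66.8, 74.1, and 56.0 CPM in *Lztr1* R409C/+ mice. Every *Lztr1* R409C/+ mouse was below every WT mouse, with *Lztr1* R409C/+ replicate 3 the lowest and WT replicate 3 the highest. The log2 fold change of -0.38 (SE 0.16, 95% interval -0.73 to -0.02) was the largest of the 9 genes in size, and its p was 0.0414 before and 0.564 after adjustment in edgeR's quasi-likelihood test. Of all genes tested, 2.86% were lower at an unadjusted p under 0.05. Leaving out each mouse in turn gave -0.48 to -0.27, and the unadjusted p was above 0.05 in 4 of the 6 omissions, those of WT replicates 2 and 3 and of *Lztr1* R409C/+ replicates 1 and 3.

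*Gsk3a* (ENSMUSG00000057177.13; chr7:24927682-24937564, minus strand) had 61.3, 57.9, and 22.8 CPM in WT mice and 41.2, 45.9, and 58.3 CPM in *Lztr1* R409C/+ mice. WT replicate 3 was far below the other 5 mice and the other 2 WT mice were the highest and the third highest of the 6. This gave a log2 fold change of 0.04 (SE 0.32, 95% interval -0.67 to 0.74; adjusted p = 0.984, edgeR's quasi-likelihood test). Leaving out WT replicate 3 turned its sign, to -0.30 with an adjusted p of 0.724 in the same test, and leaving out *Lztr1* R409C/+ replicate 3 gave -0.12. *Gsk3a* shares 29.6% of its exon bases with the antisense lncRNA *9130221H12Rik*, which followed it from mouse to mouse, at 3.72, 3.50, and 1.37 CPM in WT and 2.73, 3.12, and 3.21 CPM in *Lztr1* R409C/+ mice. With the strand of the counting unknown, reads of this pair cannot be told apart, and both may have been counted from the same reads.

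The ratio of *Gsk3a* to *Gsk3b* was 0.791, 0.710, and 0.237 in WT mice, against 0.617, 0.619, and 1.04 in *Lztr1* R409C/+ mice. The replicates 3 of the 2 groups stood at opposite ends and the other 4 mice lay close together. The mean log2 ratio was -0.97 ± 0.96 in WT and -0.44 ± 0.43 in *Lztr1* R409C/+ mice, a difference of 0.53 (exact permutation test, two-sided, p = 0.6).

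**Figure D3:**
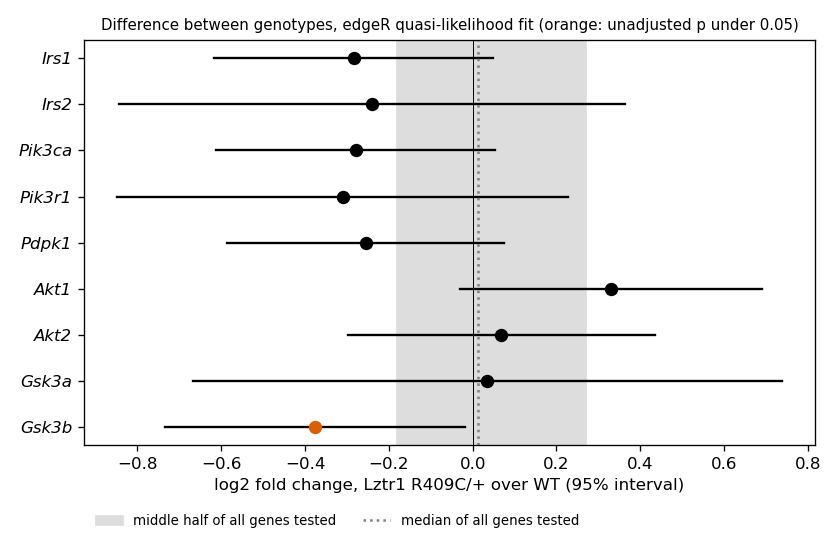
Log2 fold change of *Lztr1* R409C/+ over WT mice for the 9 genes, with 95% intervals from edgeR's quasi-likelihood fit. The interval of *Gsk3b* (orange) ends at -0.02 and those of the other 8 genes include 0.

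A few mice held most of the extreme values. *Lztr1* R409C/+ replicate 3 had the highest level of *Irs2*, *Akt1*, and *Akt2* and the lowest level of *Irs1*, *Pik3ca*, *Pik3r1*, *Pdpk1*, and *Gsk3b* among the 6 mice. WT replicate 3, the mouse with the lowest mitochondrial share, had the highest *Pik3ca*, *Pik3r1*, and *Gsk3b* and the lowest *Akt1*, *Akt2*, and *Gsk3a*. Between the highest and the lowest mouse, levels differed 1.37-fold for *Pdpk1* and 2.69-fold for *Gsk3a*, with the other 7 genes between. Without WT replicate 3 and *Lztr1* R409C/+ replicate 1, the mice of lowest and highest mitochondrial share, 8 of the 9 genes were lower and only *Akt1* was higher. The median log2 fold change over all genes was then 0.008. *Akt1* had a log2 fold change of 0.39 (edgeR's quasi-likelihood test, unadjusted p = 0.0255), and 0 of the 9 passed the adjusted threshold. It was the only member at an unadjusted p under 0.05, beside 8.5% of all genes. This omission was chosen after the data were seen.

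Log2 fold changes over all genes varied with gene length and GC content, in which the members differ. Over all genes tested, the median log2 fold change was 0.16 in the shortest of 4 equal bins of exon length and -0.08 in the longest, which held 6 of the 9 genes. By GC content the medians ran from -0.04 in the lowest of 4 bins to 0.09 in the highest, which held *Irs2*, *Akt1*, *Akt2*, and *Gsk3a*, among them the 3 genes with a log2 fold change above 0. With a correction for GC content, chosen after the data were seen, *Akt1* had a log2 fold change of 0.16, *Akt2* of -0.062, and *Gsk3a* of -0.13, beside a median of -0.068 over all genes. Under the same correction *Irs1* (-0.36), *Pik3ca* (-0.31), and *Gsk3b* (-0.39) had an unadjusted p under 0.05, as did 11.6% of all genes, and 0 of the 9 passed the adjusted threshold.

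**Figure D4:**
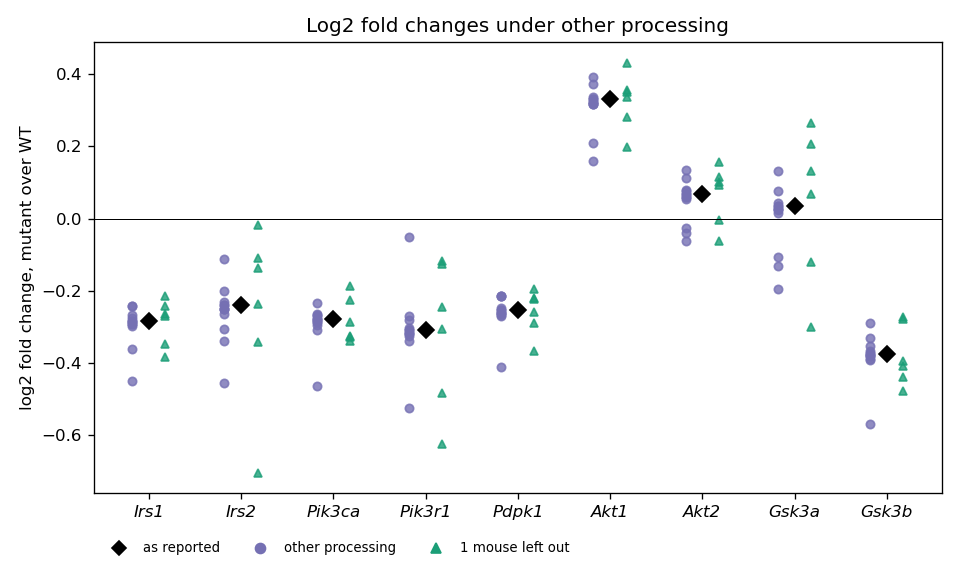
Log2 fold change of each of the 9 genes as reported (diamonds), under 12 other settings of the processing (circles), and with each of the 6 mice left out (triangles). All settings keep *Irs1*, *Irs2*, *Pik3ca*, *Pik3r1*, *Pdpk1*, and *Gsk3b* below 0 and *Akt1* above 0, and *Akt2* and *Gsk3a* lie on both sides of 0.

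For 8 of the members, the gene of at least 1 CPM whose centred log2 CPM over the 6 mice was closest to it was sought among 13214 genes. The closest match was *Slc35f5* to *Pik3ca*, with a root-mean-square difference of 0.0161 on the log2 scale, followed by *Nek1* to *Gsk3b* (0.0246). *Myg1* was nearest to *Irs1* (0.0334), *Dennd2b* to *Akt2* (0.0334), *Scly* to *Akt1* (0.0431), and *Pms1* to *Pik3r1* (0.0937). The matches of *Gsk3a* with the overlapping antisense gene *9130221H12Rik* (0.0987), whose reads cannot be separated from it, and of *Irs2* with *Cbx8* (0.108) had the largest differences. *Gsk3a* and *Irs2* also varied most between mice, with a root-mean-square spread of 0.491 and 0.43, against 0.388 for *Pik3r1* and 0.165 for *Akt2*. The size of a difference therefore does not rank how closely these matches follow their member. With only 6 mice and this many genes, a close match is a description of these libraries.

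The members were set beside 68 other genes of the pathway in 9 lists, of which 66 were tested and *Ins1* and *Ins2* had no count in any mouse. None of the 66 passed the adjusted threshold in edgeR's quasi-likelihood test, and 16 had an unadjusted p under 0.05, 5 of them higher (5.77% of all genes) and 11 lower (2.86% of all genes). DESeq2 and edgeR's exact test each called 2, *Igf2* and *Igf1*, where they called 158 and 140 of all 17212 genes. The median log2 fold change over the 66 genes was -0.06.

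Upstream of the members, *Igf2*, a growth factor ligand, had 17.8, 20.0, and 12.4 CPM in WT mice and 34.7, 32.2, and 62.0 CPM in *Lztr1* R409C/+ mice. *Igf1*, the ligand that drives postnatal growth, had 10.2, 12.4, and 12.4 CPM in WT mice and 22.2, 16.9, and 20.1 CPM in *Lztr1* R409C/+ mice. Neither ligand overlapped between the groups, and *Lztr1* R409C/+ replicate 3 was the highest for *Igf2*. The log2 fold change of *Igf2* was 1.36 (SE 0.26), with an adjusted p of 0.150 in edgeR's quasi-likelihood test, 1.74e-04 in DESeq2, and 8.17e-04 in edgeR's exact test. For *Igf1* it was 0.76 (SE 0.17), with adjusted p-values of 0.215, 0.0219, and 0.0279 in the same order of tests.

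*Insr*, the insulin receptor, had 181, 162, and 164 CPM in WT mice and 104, 151, and 130.3 CPM in *Lztr1* R409C/+ mice. All 3 *Lztr1* R409C/+ mice were below the WT mice, with a log2 fold change of -0.40 (SE 0.17; unadjusted p = 0.0395, adjusted p = 0.556, edgeR's quasi-likelihood test). *Igf1r*, its relative for the growth factors, overlapped between the groups at 22.3 ± 2.45 and 21.6 ± 3.65 CPM (WT and *Lztr1* R409C/+, SD, n = 3). Among receptor adaptors, *Grb14*, which restrains the insulin receptor, had a log2 fold change of -0.41 and *Gab1* one of -0.34, and at an unadjusted p under 0.05, 1 of 7 was lower (*Grb14*; 2.86% of all genes) and 0 were higher (5.77% of all genes).

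Of the other PI3K subunits, 2 of 7 had a log2 fold change below 0 (48.6% of all genes), and at an unadjusted p under 0.05, 1 was higher (5.77% of all genes) and 0 were lower (2.86% of all genes). *Pik3r5*, a regulatory subunit of the gamma form found mainly in leukocytes, had 0.915 ± 0.338 CPM in WT and 1.78 ± 0.337 CPM in *Lztr1* R409C/+ mice (log2 fold change 0.96). *Pik3cd* (log2 fold change 0.37) and *Pik3r6* (0.38) were both higher without overlap between the groups (8.3% of all genes), while *Pik3cg* (0.34) overlapped. *Pik3cb*, the widely expressed beta catalytic subunit, had a log2 fold change of -0.35. The 6 macrophage markers summed to 107.8 to 111 CPM in WT and 178.9 to 195.1 CPM in *Lztr1* R409C/+ mice, with all 6 at an unadjusted p under 0.05, 1 past the adjusted threshold, and none at 0. The 6 lymphocyte markers summed to 0.728 to 1.17 CPM in WT and 2.21 to 2.73 CPM in *Lztr1* R409C/+ mice, and their part and that of the macrophage markers in the values of *Igf1*, *Igf2*, and the PI3K subunits was not tested. In bulk LVs, a different number of cells of a type and a different amount of RNA per cell cannot be told apart.

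The brakes of the pathway were mixed. *Ptpn1*, a phosphatase of the insulin receptor, had a log2 fold change of 0.53, while *Phlpp1*, a phosphatase of AKT, had one of -0.42, and of the 10 brakes 1 was higher (5.77% of all genes) and 2 were lower (2.86% of all genes) at an unadjusted p under 0.05. In the TORC2 list of 6 genes, 1 was higher (5.77% of all genes) and 1 lower (2.86% of all genes) at an unadjusted p under 0.05. *Prr5l* (0.624 ± 0.0555 CPM in WT and 1.37 ± 0.258 CPM in *Lztr1* R409C/+ mice) had a log2 fold change of 1.14 and *Mapkap1*, a subunit of the complex that phosphorylates AKT, one of -0.39, which was -0.25 without *Lztr1* R409C/+ replicate 2.

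Downstream of AKT, 8 of 11 AKT substrates had a log2 fold change below 0 (48.6% of all genes), and at an unadjusted p under 0.05, 1 was lower (2.86% of all genes) and 0 were higher (5.77% of all genes). Among the 8 were *Tbc1d4*, which governs GLUT4 traffic, at -0.47 and the transcription factor gene *Foxo3* at -0.38. *Tbc1d4* was at 108, 107, and 108 CPM in WT mice and at 63.6, 94.3, and 74.9 CPM in *Lztr1* R409C/+ mice, without overlap. In glucose storage, 1 of 5 genes was lower (2.86% of all genes) and 0 were higher (5.77% of all genes) at an unadjusted p under 0.05. The glycogen branching enzyme gene *Gbe1* had a log2 fold change of -0.46 and the glycogen synthase gene *Gys1*, a GSK3 target, one of -0.23. Without *Lztr1* R409C/+ replicate 1, *Foxo3* was at -0.19 and *Gys1* at -0.064, and without *Lztr1* R409C/+ replicate 3 *Gys1* was at -0.40. The other PDK1 substrates had 0 of 6 genes at an unadjusted p under 0.05 (8.63% of all genes), with *Sgk1* and *Rps6kb2* both at 0.25. *Sgk1* was at 0.060 without *Lztr1* R409C/+ replicate 2, and *Rps6kb2* ranged from 0.056 (without WT replicate 3) to 0.47 (without WT replicate 1).

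FOXO factors raise their target genes when AKT activity, which was not measured here, is low. Of 10 such genes, 4 were lower (2.86% of all genes) and 0 higher (5.77% of all genes) at an unadjusted p under 0.05, and the median log2 fold change was -0.36 beside 0.01 over all genes. *Trim63*, a muscle ubiquitin ligase, had 144, 128, and 176 CPM in WT mice and 88.4, 104, and 115 CPM in *Lztr1* R409C/+ mice, and *Fbxo32*, another, had 208, 166, and 214 CPM and 150.5, 160.2, and 145 CPM. Neither overlapped between the groups, and their log2 fold changes were -0.54 (adjusted p = 0.410) and -0.37 (adjusted p = 0.554) in edgeR's quasi-likelihood test. Under the alternatives *Trim63* ranged from -0.72 to -0.31 and *Fbxo32* from -0.55 to -0.30. *Sesn1* (-0.35) and *Cited2* (-0.40) made up the 4, whereas *Pdk4* (0.41) and *Txnip* (0.32) varied widely between mice of 1 group, *Pdk4* from 434 to 893 CPM in WT and from 505 to 1377 CPM in *Lztr1* R409C/+ mice.

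**Figure D5:**
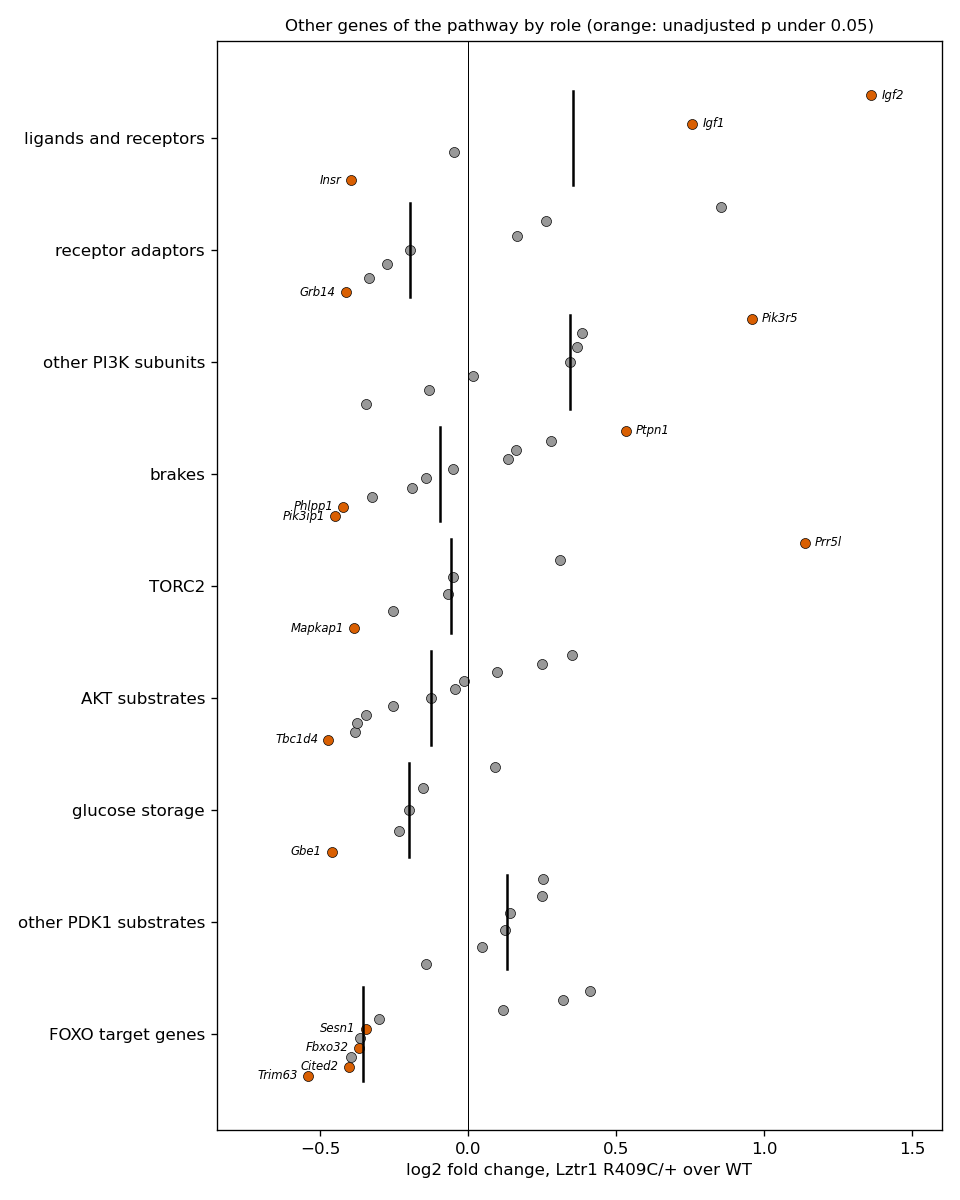
Log2 fold change of *Lztr1* R409C/+ over WT mice for the 66 other pathway genes tested, by role, with 1 point per gene, black ticks for the median of each role, and orange points with names for genes at an unadjusted p under 0.05. *Igf2*, *Prr5l*, and *Pik3r5* lie farthest to the right, and the median of the FOXO target genes is at -0.36.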

How the data were processed

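RNA of the LVs was sequenced from a NEBNext Ultra II library per mouse. Per the submitters' processing notes and the study's methods, the authors used Trim Galore, HISAT2 against GRCm39, and StringTie, and excluded rRNA. The annotation release, the counting step, and its strand setting are not given in the sources used here. The authors deposited whole-number counts per gene without normalization, which are the values analysed. A second deposited table holds their own edgeR results for 12629 genes, whose log2 fold changes and average log2 CPM were not used, and whose deposited p-values and adjusted p-values were not used either. Only its gene names were taken. All 6 count columns were mapped to a mouse by the sample labels.

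The count model was fitted by edgeR 4.0.16 in R 4.3.3 (filterByExpr, TMM, robust quasi-likelihood test, two-sided, Benjamini-Hochberg adjustment over all 17212 genes, threshold 0.05). Intervals are 95%. The mice are separate animals, and p-values weigh a difference against the spread between these 6. In edgeR's quasi-likelihood test the spread of each gene is moderated by that of all genes. Ratios of CPM within a mouse were compared by exact permutation tests. Positions and lengths come from the GENCODE annotation of GRCm39, in which 56236 of 56923 genes were found, and promoters from RefSeq (GRCm38.p6), with 15 windows for the 9 genes. In all, 5 motifs were searched after the windows were read, of which GGGCGG and CCAAT, in 35.7% and 37.4% of all windows, are common and were not used further. Floors of 3 counts cover counting error only. The genes named are the 9 members, the 2 genes of each pathway list with the smallest unadjusted p, *Insr*, *Igf1r*, *Lztr1*, and the nearest gene of each member, and some genes under this rule are not reported here. *Pik3cd*, *Pik3cg*, *Pik3r6*, *Sesn1*, *Cited2*, *Pdk4*, *Txnip*, *Siva1*, and *Akt2-ps* were added after their values were seen. The members and lists were chosen with earlier results of these data known. Marker lists covered cardiomyocytes, macrophages, and lymphocytes, and also fibroblasts, endothelial, mural, and erythroid cells, whose sums overlapped between the groups (unadjusted p under 0.05 in 2 of 6, 1 of 6, 2 of 6, and 3 of 5 genes, all higher except the mural *Myh11* and *Tagln*), and adipocytes, whose sum was at most 0.249 CPM, lower in all *Lztr1* R409C/+ mice, with *Lep* and *Retn* at 0.

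The alternatives were DESeq2's size factors, library size only, and upper quartile normalization, the DESeq2 1.42.0 Wald test and the exact test of edgeR, a filter of 10 counts per mouse or none, mitochondrial genes removed, a loess correction for gene length, a block for the replicate number, a pseudocount of 1 CPM in the ratios, and the omission of each mouse. A GC content correction and the omission of 2 mice by mitochondrial share were chosen after seeing the data. The fits were tested on simulated data, in which 200 genes were given a log2 change of 1. The main fit called 78 of these 200 at the adjusted threshold and 1 unchanged gene. A gene that was not called may therefore still differ between the groups.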

Additional observations from a re-analysis of the deposited data

How the results depend on the processing

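No alternative brought any of the 9 genes past the adjusted threshold. The count of members at an unadjusted p under 0.05 was 1, beside 8.63% of all genes. It became 0 with library size only (4% of all genes), 0 with the gene length correction (8.25%), and 3 with the GC content correction (11.6%). On leaving out each mouse it was 0 to 2, beside 6.67% to 8.16% of all genes. It was 0 without WT replicate 2 or 3 and 2, *Pik3r1* and *Gsk3b*, without *Lztr1* R409C/+ replicate 2. Without replicate 1 or 3 of that group it was 1, *Akt1* and *Irs2* in place of *Gsk3b*. With upper quartile normalization the count was still 1 (8.6% of all genes), but *Akt1* in place of *Gsk3b*. The 66 other pathway genes gave 0 calls, and 2 each with DESeq2 and edgeR's exact test, while over all genes 7 were called, and 158 and 140 in those tests. Library size only moved the median of all genes from 0.01 to -0.14, and that of the members relative to it stayed at -0.27; with the GC content correction the median of all genes was -0.068. *Akt2* turned to -0.039 with library size only, -0.062 with the GC content correction, and -0.028 without the 2 mice of extreme mitochondrial share, and ranged from -0.062 to 0.16 on leaving out each mouse, below 0 without replicate 3 of either group. *Gsk3a* turned to -0.11 with the gene length correction, -0.13 with the GC content correction, and -0.19 without those 2 mice, and ranged from -0.30 to 0.26, likewise below 0 without replicate 3 of either group. *Lztr1* turned to -0.014 with library size only and -0.0042 with the GC content correction. Relative to the median of all genes, *Akt2* was at 0.10 and 0.0057 and *Lztr1* at 0.13 and 0.064 under these 2 settings, against 0.057 and 0.12 otherwise, so these turns in sign are within the shift of all genes. *Gsk3a* was at 0.023 relative to that median and at -0.065 with the GC content correction, so its turn was not. *Igf1r* turned from -0.05 to 0.059 with the gene length correction and 0.16 without the 2 mice, and ranged from -0.19 to 0.056, and *Rps6kb2* turned to -0.061 without the 2 mice. The ratios had no call to lose: on leaving out each mouse, the log2 difference of *Irs1* to *Irs2* ranged from -0.19 to 0.49, *Pik3ca* to *Pik3r1* from -0.066 to 0.26, and *Gsk3a* to *Gsk3b* from -0.027 to 0.84. The cause of these shifts was not tested. Of 540 values of 30 named genes, 519 kept direction and side of the adjusted threshold, 17 turned in sign (in 5 genes), and 4 passed the threshold. None of the 30 genes was past it in the main fit, so most had no call to lose. Over all genes tested, same-numbered mice did not deviate together (correlations of -0.0013, 0.0215, and -0.0573). The labels state no pairing, and correlations over all genes cannot exclude one that touches few genes. With the replicate block, 0 members had an unadjusted p under 0.05 (7.13% of all genes), and the calls over all genes went from 7 to 1.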
